A study of Homo sapiens with 24 samples.

Results

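The 31 genes described here are the human heat shock protein and J-protein genes whose symbols follow the HSPA, HSPB, HSPD, HSPE, HSPH, HSP90, DNAJA, DNAJB or DNAJC naming, taken where a gene was listed in every library of a batch. The rule found 27 of the 6603 genes listed throughout batch 1 and 31 of the 7223 listed throughout batch 2. All 27 were in both batches, and HSPA1B, HSPA12A, DNAJC12 and DNAJC28 were in batch 2 alone. By name, batch 1 held 3 DNAJA, 5 DNAJB, 10 DNAJC, 4 HSPA, 3 HSPB, 1 HSPH and 1 HSP90 gene, and batch 2 added 2 DNAJC and 2 HSPA genes. Among the HSPB names, HSPBP1 and HSPBAP1 belong to partners of chaperones and not to small heat shock proteins, and they were kept because the rule is by name. Several well-known chaperone genes, among them HSPA8, HSPA5, HSPD1, HSPE1, HSP90AB1 and DNAJB9, were not analysed here.

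HSP70 proteins bind exposed stretches of unfolded proteins in cycles driven by ATP. J-proteins bring clients to HSP70 and start its ATPase, HSP110 proteins and other exchange factors reset it, HSP90 finishes the folding of kinases and receptors, and small heat shock proteins hold clients that would aggregate. Under heat or proteotoxic stress the transcription factor HSF1 binds heat shock elements, inverted repeats of GAA, in the promoters of the inducible members. Integrator is a complex bound to RNA polymerase II near gene starts. Its INTS11 subunit cuts nascent RNA, and its INTS8 subunit helps to hold the phosphatase PP2A on the complex.

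The assay was TT-seq, which purifies and sequences RNA made during a short labelling pulse, and the cells were DLD1, an established human colorectal adenocarcinoma line. The 24 libraries formed 12 groups of 2 in 2 batches. The N211del line carried a dTAG degron knocked in at INTS8 together with ectopic INTS8-N211del, the INTS8 line carried the INTS8 degron alone, and the INTS11 line carried the degron at INTS11. The compound dTAG13 directs the tagged protein to degradation. In batch 1 each of the 3 lines was given dTAG13 for 3 h or DMSO, the vehicle. In batch 2 the N211del and INTS11 lines were taken at 0, 1 and 3 h of dTAG13, and 0 h served as the reference. No library of a line without a degron given dTAG13 was among those used here, the INTS8 line was not in batch 2, and the number of clones per line was not given in the sources used here. Degradation acts on the protein, so these RNA values do not show whether it took place. The duplicates are labelled as biological, but nothing says that they were separate cultures, and the p-values then measure only the spread between these libraries.

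The deposited values are headed FPKM. In batch 1 they equal whole numbers divided by gene length in kb, with no factor per library visible, and in batch 2 they equal whole numbers divided by length and multiplied by 1 factor per library. The whole numbers, called units here, summed to between 5514811 and 8114955 per library in batch 1 and between 8709274 and 11266617 in batch 2. Duplicates correlated at 0.994 to 0.997 across genes on a log2 scale, which is a correlation over genes and not over replicates. In 6 of the 12 groups the duplicates differed by no more than counting noise. The intestinal and epithelial markers CDX2, EPCAM, CDH1, KRT8 and KRT18 were high in every library (at least 50.1), whereas KRT20 and CEACAM5 stayed under 0.2 in batch 2.

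The median member level over the libraries was 23.5 in batch 1 against 16.7 over all genes listed, and 20.5 against 14.4 in batch 2. HSP90AA1, the stress-inducible cytosolic HSP90, averaged 713 in batch 1 and 694 in batch 2, ranks 5 and 9 among all genes. HSPB1, the small heat shock protein also called HSP27, averaged 645 and 876, ranks 7 and 6. Next came DNAJB1 and DNAJA1, cytosolic J-proteins that work with HSP70, at 214 and 124 in batch 1 and 299.6 and 120.0 in batch 2. HSPA9, the mitochondrial HSP70, and HSPH1, an HSP110 exchange factor, stood between 80.6 and 105. At the low end were DNAJC6, the clathrin-uncoating auxilin, with 1.81 in batch 1 and 1.20 in batch 2, and DNAJC18 with 2.04 and 1.99. HSP90AA1, HSPB1, DNAJB1 and DNAJA1 thus led the members in both batches.

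The 4 members found in batch 2 alone were close to 0. HSPA1B, an inducible HSP70 whose near-identical copy HSPA1A makes its counts uncertain, had 0.280 and 0 at 0 h, 0.299 and 0.298 at 1 h and 0.281 and 0.844 at 3 h in the N211del line. Its INTS11-line values were 0.474 and 0.265 at 0 h, 0.234 and 0.246 at 1 h and 0.897 and 0.229 at 3 h. In the N211del line both treated groups lay just above 0 h, and in the INTS11 line 1 h lay under 0 h and 3 h overlapped it. The N211del comparisons did not pass (adjusted p = 0.208 at 1 h and 0.0669 at 3 h). Each would pass without the first 0 h library of that line (adjusted p = 0.032 and 0.0123), as would the 3 h comparison without the first 3 h library (adjusted p = 0.0429). HSPA12A stayed between 0.0396 and 0.211, DNAJC28 between 0 and 0.387 and DNAJC12, which fell under the filter, between 0 and 0.0920.

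Promoter windows of 250 bases upstream of the start were found for 29 of the 31 members, 38 windows in all, in RefSeq on GRCh38.p14, a build other than those named in the submitters' processing notes. They are shown for 6 members: the 4 most highly expressed ones, all heat-inducible, and 2 members described further on that rose in every 3 h comparison. Each shown window is one with a match. No window was found for DNAJC1 or for DNAJC22, which also rose in every 3 h comparison. A heat shock element was searched as GAANNTTC or TTCNNGAA, each of which reads the same on both strands, and matches stand in capitals. The windows are chr14:102087045-102087294 on the minus strand for HSP90AA1, chr7:76302423-76302672 on the plus strand for HSPB1, chr19:14518398-14518647 on the minus strand for DNAJB1, chr9:33025023-33025272 on the plus strand for DNAJA1, chr4:127782072-127782321 on the plus strand for HSPA4L and chr13:43023336-43023585 on the plus strand for DNAJC15, written 5′ to 3′ along the gene.
HSP90AA1: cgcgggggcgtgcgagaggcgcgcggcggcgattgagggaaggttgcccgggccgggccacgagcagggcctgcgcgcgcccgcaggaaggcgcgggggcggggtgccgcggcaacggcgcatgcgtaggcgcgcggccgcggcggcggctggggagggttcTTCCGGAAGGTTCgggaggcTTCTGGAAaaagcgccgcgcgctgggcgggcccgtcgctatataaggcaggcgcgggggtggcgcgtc
HSPB1: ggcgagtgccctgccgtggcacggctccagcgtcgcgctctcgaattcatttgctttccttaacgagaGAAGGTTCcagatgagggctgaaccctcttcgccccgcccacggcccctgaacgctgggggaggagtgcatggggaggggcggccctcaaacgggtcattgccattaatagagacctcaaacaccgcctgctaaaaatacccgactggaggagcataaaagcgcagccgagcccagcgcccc
DNAJB1: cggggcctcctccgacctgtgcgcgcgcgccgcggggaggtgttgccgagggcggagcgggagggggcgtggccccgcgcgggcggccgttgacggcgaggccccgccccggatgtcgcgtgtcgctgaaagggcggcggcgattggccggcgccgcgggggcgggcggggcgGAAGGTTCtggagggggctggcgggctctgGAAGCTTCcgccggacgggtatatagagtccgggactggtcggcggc
DNAJA1: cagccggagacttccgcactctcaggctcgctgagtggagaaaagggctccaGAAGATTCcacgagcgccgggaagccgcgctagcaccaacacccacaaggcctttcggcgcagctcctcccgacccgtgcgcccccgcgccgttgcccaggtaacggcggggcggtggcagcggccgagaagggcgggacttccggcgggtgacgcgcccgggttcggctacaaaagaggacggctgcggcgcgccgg
HSPA4L: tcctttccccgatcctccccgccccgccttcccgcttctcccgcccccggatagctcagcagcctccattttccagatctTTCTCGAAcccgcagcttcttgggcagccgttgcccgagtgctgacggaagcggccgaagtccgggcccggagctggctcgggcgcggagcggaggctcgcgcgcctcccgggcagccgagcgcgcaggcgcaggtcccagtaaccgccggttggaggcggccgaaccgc
DNAJC15: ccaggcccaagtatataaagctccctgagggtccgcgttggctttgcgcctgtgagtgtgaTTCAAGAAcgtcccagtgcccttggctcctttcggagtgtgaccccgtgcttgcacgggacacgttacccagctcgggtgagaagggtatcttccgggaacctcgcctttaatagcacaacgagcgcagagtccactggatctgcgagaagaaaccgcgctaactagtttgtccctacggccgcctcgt
The HSP90AA1 window held 3 matches that started 88, 83 and 68 bases upstream, of which the first 2 overlap, and the DNAJB1 window held 2 at 77 and 47. Single matches stood farther out, at 198 bases in DNAJA1, 182 in HSPB1, 189 in DNAJC15 and 170 in HSPA4L. Among the windows not shown, HSPA1B had 1 match at 105 bases and DNAJB6 had 2 that overlap, at 131 and 126. DNAJB6 was called higher in no 3 h comparison. HSP90AA1, DNAJB1 and HSPA4L have further windows for other starts, and those held no match. Either form occurred in 8 of the 38 member windows (21.1%), against 11.6% of the 35116 windows in the table. GAANNTTC alone was in 15.8% of member windows against 5.78% of all, and TTCNNGAA alone in 10.5% against 6.62%. TATAAA, on either strand, was in 13.2% against 10.7%, and CCAAT, on either strand, in 28.9% against 32.0%. The ER stress element, CCAAT and CCACG 9 bases apart on either strand, was in 0.0740% of all windows and in no member window. A match is a string of letters, and binding was not measured.

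After 3 h of dTAG13 the members moved in both directions in each line, and 4 of the 27 were called in the same direction in every line and batch. DNAJC22, DNAJC15, which sits in the inner mitochondrial membrane, and HSPA4L, an HSP110 family member, rose in all 5 comparisons at 3 h (3 lines in batch 1, 2 lines in batch 2). DNAJC13, an endosomal J-protein that acts in receptor recycling, fell in all 5. DNAJB1, DNAJC1 and HSPA13 were called higher in one line or batch and lower in another. Of the 6569 genes tested in both batches, 12.1% were called higher in all 5, 2.19% lower in all 5 and 13.2% both ways. These 5 comparisons share no library.

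A member was called when limma's test gave a Benjamini-Hochberg adjusted p under 0.05 over all genes tested, 6579 in batch 1 and 6950 in batch 2. In the N211del line at 3 h in batch 1, 14 of 27 members were called, 10 higher and 4 lower. Of all genes 55.6% were called there, 48.5% higher and 7.1% lower. In the INTS8 line 18 of 27 were called, 8 higher and 10 lower, against 55.6% of all genes, 34.6% higher and 21% lower. In the INTS11 line 15 of 27 were called, 3 higher and 12 lower, against 39.1% of all genes, 19.4% higher and 19.8% lower. In batch 2, the N211del line at 3 h had 18 of 30 members called, 13 higher and 5 lower, against 63.5% of all genes, 49.7% higher and 13.8% lower. The INTS11 line at 3 h had 19 of 30, 7 higher and 12 lower, against 55.4% of all genes, 36% higher and 19.3% lower. The share of members called was 51.9% and 60% in the N211del line of batches 1 and 2, below that of all genes, and 66.7% in the INTS8 line and 55.6% and 63.3% in the INTS11 line, above it. Centring each library on its median gene raised the N211del shares to 77.8% and 73.3%. These were above all genes, 4087 of 6579 and 4584 of 6950. With agreeing duplicates averaged, as described below, the INTS11 line of batch 2 was below all genes. These shares were not tested against each other. Falls made up more of the members' calls than of all genes' calls in each of the 5. Over all genes, fold change was lower at higher expression level in each of the 5. Spearman's rho was -0.251, -0.268 and -0.38 in the N211del, INTS8 and INTS11 lines of batch 1. It was -0.258 and -0.284 in the N211del and INTS11 lines of batch 2. The median member level was above that of all genes, and whether level accounts for the falls was not tested.

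The whole distribution differed between treated and reference libraries, and the split between higher and lower depends on whether that shift is kept. In batch 1 no factor per library was visible, so treatment and library total cannot be told apart in this shift. In the N211del line of batch 1 the totals were 5612470 and 5514811 units with DMSO and 6175772 and 7015653 with dTAG13. The library medians there were 3.80 and 3.79 (log2) with DMSO and 3.98 and 4.14 with dTAG13. The median gene shifted by 0.21 (log2) in the N211del line, 0.06 in the INTS8 line and -0.03 in the INTS11 line in batch 1, and by 0.18 in the N211del line and 0.08 for the INTS11 line at 3 h in batch 2. The median member minus the median gene was -0.14 in the N211del line, -0.15 in the INTS8 line and -0.11 in the INTS11 line in batch 1, and -0.01 in the N211del line and -0.12 for the INTS11 line in batch 2. With each library centred on its median gene, the calls became 7 higher and 14 lower in the N211del line, 6 and 14 in the INTS8 line and 5 and 14 in the INTS11 line in batch 1, and 9 and 13 in the N211del line and 7 and 14 for the INTS11 line in batch 2. Of all genes, 26.9% were then higher and 35.2% lower in the N211del line, 30.7% and 36.4% in the INTS8 line and 26.1% and 24.5% in the INTS11 line in batch 1, and 30.9% and 35.1% in the N211del line and 31.8% and 28.9% for the INTS11 line in batch 2. On that scale HSPBAP1 joined the 3 genes that rose in all 5 comparisons. DNAJA2, DNAJA3, DNAJB6, DNAJB14, DNAJC5, DNAJC18, HSP90AA1, HSPA4 and HSPA9 joined DNAJC13 among those lower in all 5, where 11.1% of all genes were higher and 11.4% lower in all 5. As an alternative chosen after seeing the data, duplicates that agreed within counting noise were averaged and counted as 1 library. The spread then came only from groups whose duplicates differed by more than counting noise. The median SE over genes rose from 0.0875 to 0.137 in the batch 1 comparisons at 3 h, so fewer calls can follow from that choice alone. The numbers called were then 11 in the N211del line, 11 in the INTS8 line and 7 in the INTS11 line in batch 1, and 16 in the N211del line and 7 for the INTS11 line in batch 2, against 40.1%, 40.1%, 20.8%, 53.3% and 32.7% of all genes in the same order. DNAJC13 kept its calls, whereas in the INTS11 line DNAJC15 and HSPA4L of batch 1 (adjusted p = 0.0596 and 0.102) and DNAJC22 of batch 2 (adjusted p = 0.0893) did not pass. The libraries are bulk, so a change in the share of cells that make an RNA and a change in the amount per cell cannot be told apart.

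**Figure D1:**
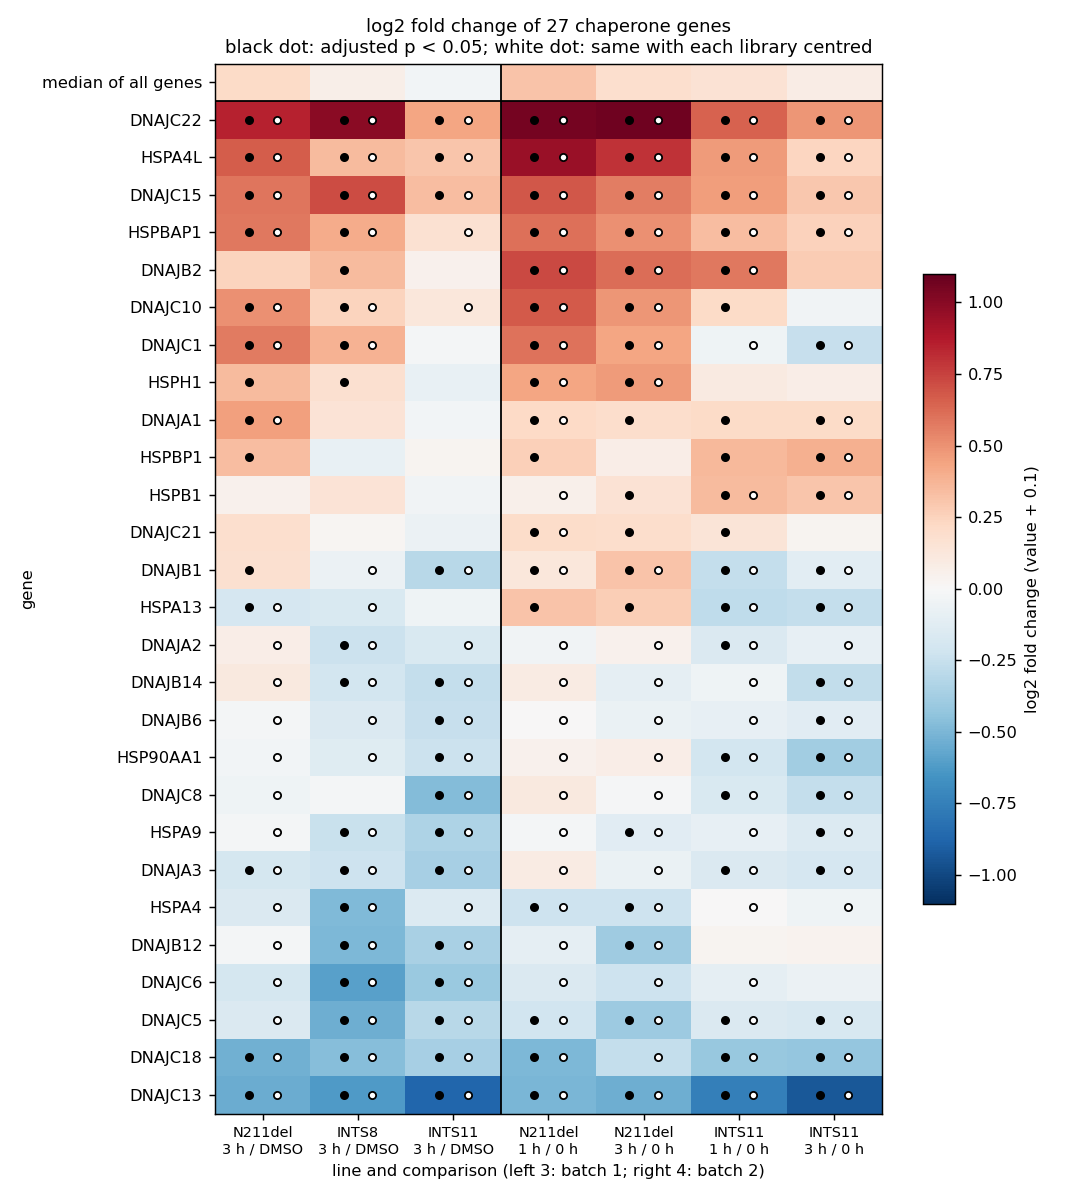
Colour gives the log2 fold change of the 27 members found in both batches (rows, ordered by their mean) in 7 comparisons (columns), with the median of all genes tested in the top row. A black dot marks an adjusted p under 0.05 and a white dot the same after each library was centred, where the sign can differ from the colour. DNAJC22, HSPA4L and DNAJC15 are red with both dots in all 7 columns and DNAJC13 is blue with both dots in all 7. The middle rows change colour between the N211del and INTS11 columns.

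DNAJC22, a J-protein of the DNAJC class, had the largest called rise in each of the 5 comparisons at 3 h. HSPA1B and DNAJC28, both near 0, had larger values in the N211del line of batch 2 (1.62 and 1.17) that did not pass. The DNAJC22 values in batch 1 were 12.9 and 14.8 in N211del cells given dTAG13 and 7.79 and 7.50 with DMSO, 20.4 and 19.3 in INTS8 cells given dTAG13 and 9.70 and 10.1 with DMSO, and 5.88 and 6.76 in INTS11 cells given dTAG13 and 4.56 and 4.70 with DMSO. Treated libraries lay above their vehicle libraries in each line. The log2 fold changes were 0.85 ± 0.09 in the N211del line, 0.99 ± 0.09 in the INTS8 line and 0.44 ± 0.09 in the INTS11 line (± SE, adjusted p = 8.87e-08, 8.09e-09 and 0.000953). In batch 2 the N211del line had 4.56 and 5.85 at 0 h, 11.8 and 9.94 at 1 h and 12.8 and 9.38 at 3 h, and the INTS11 line had 6.67 and 7.27 at 0 h, 10.5 and 11.6 at 1 h and 9.72 and 9.92 at 3 h. Both lines were above their 0 h values at 1 h and at 3 h. The 3 h log2 fold change was 1.07 ± 0.16 in the N211del line and 0.49 ± 0.16 for the INTS11 line, and the INTS11-line call (adjusted p = 0.024) was lost when any 1 of its 4 libraries was left out (adjusted p 0.0516 to 0.11). The gene is short, and its values rested on as few as 31 and at most 139 units per library in batch 1.

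DNAJC15 had 15.6 and 17.0 in N211del cells given dTAG13 and 11.4 and 10.3 with DMSO, 25.2 and 24.4 in INTS8 cells given dTAG13 and 14.6 and 15.5 with DMSO, and 18.2 and 19.3 in INTS11 cells given dTAG13 and 14.4 and 15.2 with DMSO. Batch 2 gave 10.7 and 11.5 at 0 h, 17.4 and 18.4 at 1 h and 16.8 and 16.1 at 3 h in the N211del line, and 15.5 and 15.4 at 0 h, 22.1 and 20.6 at 1 h and 19.0 and 19.1 at 3 h in the INTS11 line. No treated group overlapped its reference. The 3 h rises were 0.59 ± 0.08, 0.72 ± 0.08 and 0.34 ± 0.08 on the log2 scale in the N211del, INTS8 and INTS11 lines of batch 1, and 0.56 ± 0.05 and 0.30 ± 0.05 in the N211del and INTS11 lines of batch 2. Relative to the median gene they were 0.37, 0.65, 0.37, 0.38 and 0.22 in the same order.

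HSPA4L had 16.8 in both N211del libraries given dTAG13 and 10.4 and 10.6 with DMSO, 18.8 and 17.0 in INTS8 cells given dTAG13 and 13.5 and 14.6 with DMSO, and 21.8 and 21.0 in INTS11 cells given dTAG13 and 17.8 and 16.8 with DMSO. Batch 2 values were 11.4 and 12.5 at 0 h, 22.0 and 24.3 at 1 h and 20.5 and 21.1 at 3 h in the N211del line. Its INTS11-line values were 11.0 and 10.5 at 0 h, 15.5 and 14.5 at 1 h and 12.9 and 12.6 at 3 h. The 3 h log2 fold changes were 0.67 ± 0.08, 0.35 ± 0.08 and 0.30 ± 0.08 in the N211del, INTS8 and INTS11 lines of batch 1, and 0.80 ± 0.06 and 0.24 ± 0.06 in the N211del and INTS11 lines of batch 2. In the INTS11 line of batch 1 the call was lost without the second DMSO library (adjusted p = 0.063) or without the first dTAG13 library (adjusted p = 0.0563).

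The 2 other HSP110 exchange factors differed from each other. HSPA4 was called higher in none of the 5 comparisons at 3 h, and HSPH1 was called higher in 3 of the 5, where HSPA4L was higher in all. HSPA4 had 29.6 and 33.0 in N211del cells given dTAG13 and 36.1 and 33.8 with DMSO, 36.3 and 32.7 in INTS8 cells given dTAG13 and 46.9 and 49.7 with DMSO, and 41.8 and 41.6 in INTS11 cells given dTAG13 and 46.2 in both libraries with DMSO. It was lower in the INTS8 line (log2 fold change -0.48 ± 0.07, adjusted p = 9.71e-06) and in the N211del line of batch 2 at 1 h and 3 h (-0.23 ± 0.04 at both). In the other 3 h comparisons its values were -0.16 in the N211del line and -0.15 for the INTS11 line of batch 1 and -0.05 in the INTS11 line of batch 2, all of which passed with each library centred, as did the first without the second dTAG13 library (adjusted p = 0.02). HSPH1 had 85.1 and 81.9 in N211del cells given dTAG13 and 64.4 and 66.6 with DMSO, and 93.9 and 97.5 at 0 h, 130.2 and 129 at 1 h and 133 and 132 at 3 h in the same line in batch 2. These groups were well apart, with log2 fold changes at 3 h of 0.35 ± 0.07 in batch 1 and 0.47 ± 0.05 in batch 2, the first of them 0.09 (adjusted p = 0.384) with each library centred. HSPH1 in the INTS11 line had 101 and 94.4 with dTAG13 and 106 and 101 with DMSO, and 92.7 and 91.7 at 3 h against 89.3 and 85.5 at 0 h, and neither comparison passed (adjusted p = 0.384 and 0.186). In the INTS8 line it had 102 and 94.2 with dTAG13 and 79.8 and 94.2 with DMSO, and its call (adjusted p = 0.0492) did not survive centring (adjusted p = 0.475) or the loss of the first DMSO (adjusted p = 0.63) or first dTAG13 library (adjusted p = 0.296).

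DNAJC13 showed the largest falls. It had 7.20 and 7.79 in N211del cells given dTAG13 and 11.2 and 10.8 with DMSO, 10.7 and 10.2 in INTS8 cells given dTAG13 and 16.4 and 15.8 with DMSO, and 8.43 and 8.35 in INTS11 cells given dTAG13 and 15.4 and 15.5 with DMSO. In batch 2 it had 9.83 and 10.5 at 0 h, 6.90 and 7.46 at 1 h and 6.81 and 7.20 at 3 h in the N211del line, and 13.5 and 12.5 at 0 h, 7.90 and 7.43 at 1 h and 6.66 and 6.88 at 3 h in the INTS11 line. Every treated library lay under its references, and most of the fall was present at 1 h. The 3 h log2 fold changes were -0.55 ± 0.08, -0.62 ± 0.08 and -0.87 ± 0.08 in the N211del, INTS8 and INTS11 lines of batch 1, and -0.53 ± 0.06 and -0.93 ± 0.06 in the N211del and INTS11 lines of batch 2. These calls held under every alternative that was run, left-out libraries included.

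**Figure D2:**
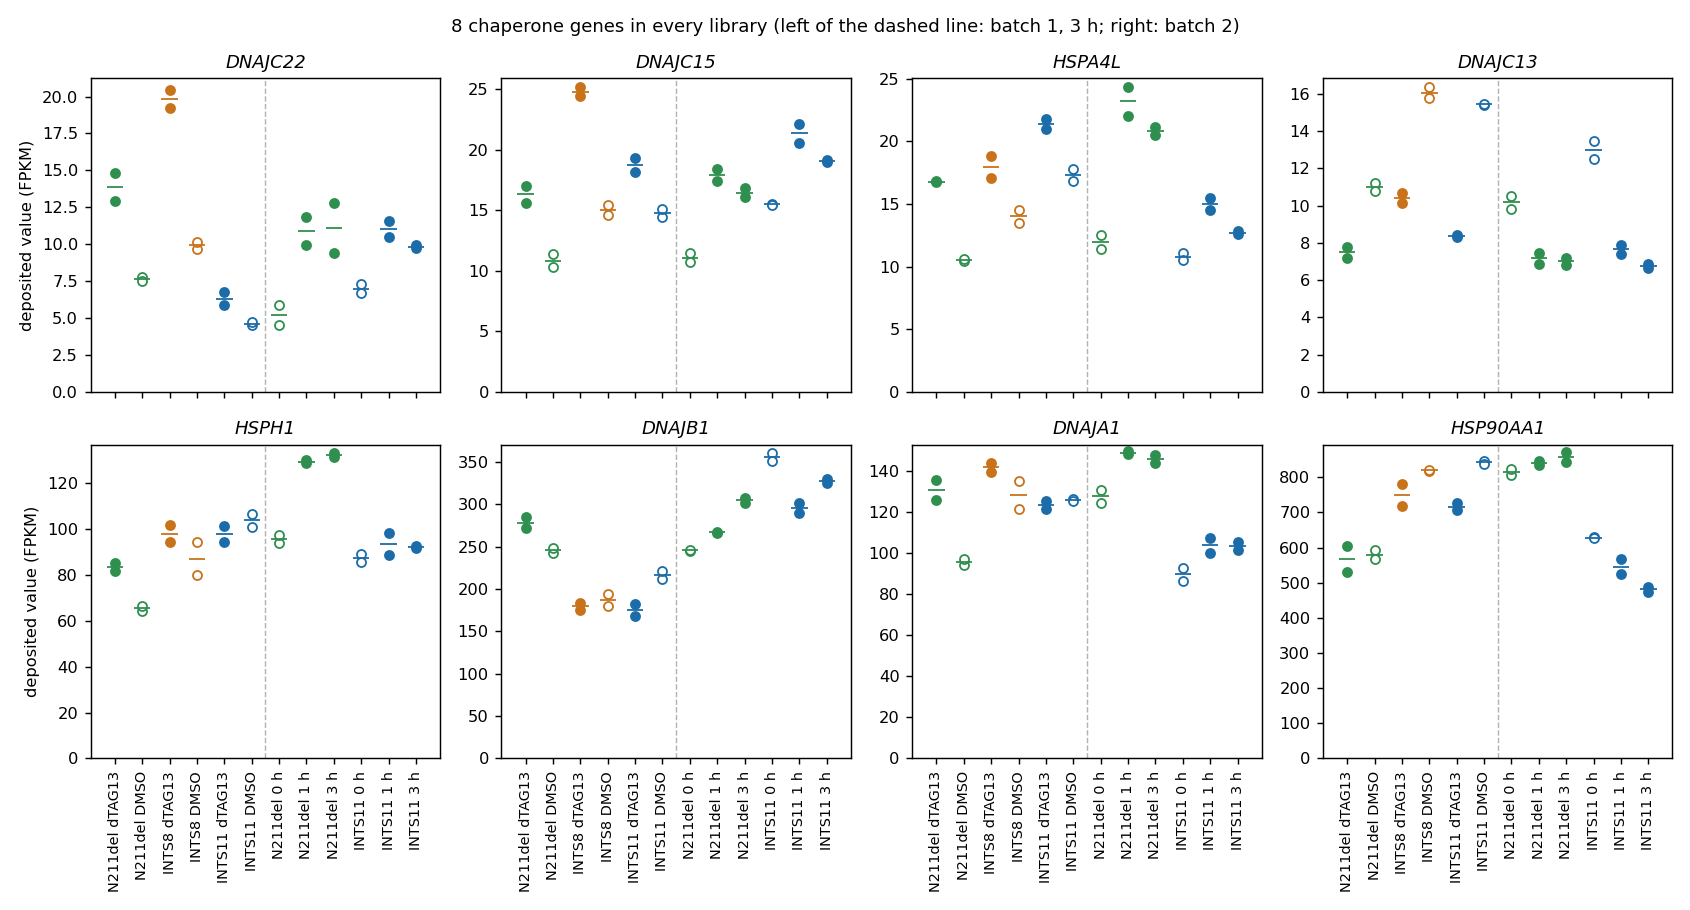
Deposited FPKM values of 8 members in each of the 24 libraries, with batch 1 left of the dashed line and batch 2 right of it. Filled points are libraries given dTAG13 for 1 or 3 h, open points are DMSO or 0 h libraries, and short lines are group means (n = 2). DNAJC13 is lower in the filled points of every line, DNAJC22, DNAJC15 and HSPA4L are higher, and the order of the N211del and INTS11 lines for HSP90AA1 differs between the batches.

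Among the inducible cytosolic chaperones the calls differed between lines. HSP90AA1 had 531 and 605 in N211del cells given dTAG13 and 592 and 568 with DMSO, groups that overlapped. It had 780.3 and 719.7 in INTS8 cells given dTAG13 and 818 and 822 with DMSO, and 707 and 726 in INTS11 cells given dTAG13 and 846 and 838 with DMSO. Its batch 2 values were 806 and 823 at 0 h, 836 and 846 at 1 h and 872 and 844 at 3 h in the N211del line, and 629 and 626 at 0 h, 566 and 523 at 1 h and 489 and 474 at 3 h in the INTS11 line. It fell in the INTS11 line in both batches at 3 h (log2 fold change -0.23 ± 0.06 and -0.38 ± 0.04, adjusted p = 0.00568 and 3.43e-05). In the N211del line the changes were -0.03 in batch 1 and 0.07 in batch 2, which did not pass, and with each library centred they were -0.29 and -0.12, which did. The N211del response minus the INTS11 response at 3 h was 0.20 in batch 1, which did not pass. In batch 2 this difference was 0.46, which did.

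DNAJB1 had 272 and 285 in N211del cells given dTAG13 and 243 and 248 with DMSO, 175 and 184 in INTS8 cells given dTAG13 and 181 and 195 with DMSO, and 182 and 168 in INTS11 cells given dTAG13 and 212 and 221 with DMSO. Its batch 2 values were 245 and 246 at 0 h, 268 and 267 at 1 h and 302 and 308 at 3 h in the N211del line, and 361 and 351 at 0 h, 290.4 and 302 at 1 h and 330.4 and 325 at 3 h in the INTS11 line. It thus rose in the N211del line and fell in the INTS11 line. The 3 h log2 fold changes were 0.18 ± 0.06 in the N211del line and -0.31 ± 0.06 for the INTS11 line in batch 1, and 0.31 ± 0.03 in the N211del line and -0.12 ± 0.03 for the INTS11 line in batch 2. On the centred scale the N211del value of batch 1 turned to -0.08 (adjusted p = 0.262) and that of batch 2 stayed higher at 0.12 (adjusted p = 0.0137). The N211del call of batch 1 was lost without the first or the second DMSO library (adjusted p = 0.111 and 0.0611) and without the second dTAG13 library (adjusted p = 0.11). In both lines DNAJB1 was higher at 3 h than at 1 h, by 0.19 ± 0.03 in the N211del line and 0.15 ± 0.03 for the INTS11 line, and by 0.34 and 0.25 with each library centred.

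DNAJA1 rose in the N211del line of batch 1, with 126 and 136 under dTAG13 and 94.4 and 97.2 under DMSO (log2 fold change 0.45 ± 0.07, adjusted p = 4.5e-06). It had 144 and 139.5 in INTS8 cells given dTAG13 and 121 and 135 with DMSO, and 125 and 122 in INTS11 cells given dTAG13 and 126 and 125 with DMSO, and neither passed. In batch 2 it had 144 and 148 at 3 h against 125 and 131 at 0 h in the N211del line, and 105 and 102 at 3 h against 93.0 and 86.3 at 0 h in the INTS11 line. The rises were 0.19 ± 0.05 and 0.21 ± 0.05, of which that of the N211del line was no different from the median gene with each library centred (0.00, adjusted p = 0.906). HSPB1 had 923 and 973 in N211del cells given dTAG13 and 933 and 904 with DMSO, 532 and 543 in INTS8 cells given dTAG13 and 470.3 and 502 with DMSO, and 448 and 515 in INTS11 cells given dTAG13 and 456 and 535 with DMSO, and no comparison of batch 1 passed. In batch 2 it had 943 and 903 at 3 h against 778 and 714 at 0 h in the INTS11 line (log2 fold change 0.31 ± 0.05, adjusted p = 0.00115), and 964 and 897 at 3 h against 818 and 854 at 0 h in the N211del line (0.15 ± 0.05, adjusted p = 0.0312). The N211del call was lost without the first 0 h (adjusted p = 0.157) or the first 3 h library (adjusted p = 0.197) and turned to -0.04 with each library centred.

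A list of 16 heat-inducible members had 6 tested in batch 1 and 7 in batch 2. At 3 h in batch 1, 4 of the 6 were called in the N211del line, all higher, and 2 in the INTS8 line, both higher, while 1 rose and 2 fell in the INTS11 line. Of all genes, 48.5% were higher in the N211del line, 34.6% higher in the INTS8 line, and 19.4% higher and 19.8% lower in the INTS11 line. The list's medians were 0.26, 0.15 and -0.06 (log2), beside medians of 0.21, 0.06 and -0.03 over all genes. Centring each library gave 2 higher and 1 lower, 1 and 2, and 1 and 2. In batch 2 at 3 h, 5 of 7 were called higher in the N211del line, and 3 rose and 2 fell in the INTS11 line, with 49.7% of all genes higher in the N211del line and 36% higher and 19.3% lower in the INTS11 line. The medians were 0.31 and 0.21 beside 0.18 and 0.08 over all genes. Centring changed these to 3 higher and 1 lower in the N211del line and 3 higher and 2 lower in the INTS11 line. The inducible cytosolic members therefore did not move as 1 block: in the INTS11 line of batch 2 DNAJA1, HSPB1 and HSPA4L were higher while HSP90AA1 and DNAJB1 were lower. By a test of the difference at 3 h in batch 1, 4 of the 6 had the higher fold change in the N211del than the INTS11 line. Of all genes, 43.7% were called higher there and 4.8% lower. With each library centred 0 of the 6 were called, against 15.1% of all genes higher and 18.8% lower. In batch 2, 4 of the 7 had the higher fold change in the N211del line, against 35.8% of all genes higher and 15.2% lower. Centring gave 4 higher and 2 lower, against 25.2% of all genes higher and 28.7% lower.

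The endoplasmic reticulum members were split as well. DNAJC1, a membrane J-protein of that compartment, had 9.45 and 10.7 in N211del cells given dTAG13 and 7.07 and 6.41 with DMSO, 13.4 and 12.02 in INTS8 cells given dTAG13 and 9.62 and 9.80 with DMSO, and 9.11 and 8.79 in INTS11 cells given dTAG13 and 9.07 and 9.10 with DMSO. Batch 2 gave 9.63 and 9.91 at 0 h, 14.9 and 14.8 at 1 h and 13.1 and 13.4 at 3 h in the N211del line, and 8.23 and 7.83 at 0 h, 8.03 and 7.46 at 1 h and 6.73 in both libraries at 3 h in the INTS11 line. It rose by 0.57 ± 0.09 in the N211del line and 0.38 ± 0.09 in the INTS8 line on the log2 scale, with -0.02 in the INTS11 line. In batch 2 it rose by 0.43 ± 0.05 in the N211del line and fell by 0.25 in the INTS11 line, and these 4 calls held with each library centred.

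DNAJC10, a disulfide reductase of the endoplasmic reticulum, had 19.0 and 19.8 in N211del cells given dTAG13 and 13.8 and 13.5 with DMSO, 24.8 and 21.6 in INTS8 cells given dTAG13 and 19.8 and 19.1 with DMSO, and 22.6 and 23.1 in INTS11 cells given dTAG13 and 21.3 and 20.5 with DMSO. Treated libraries were above vehicle in each line, and the N211del and INTS8 lines passed (0.51 ± 0.08 and 0.25 ± 0.08). At 3 h in batch 2 it had 22.7 and 22.2 against 15.8 and 16.2 at 0 h in the N211del line (0.49 ± 0.05) and 18.6 and 17.9 against 18.7 in both libraries in the INTS11 line (-0.04, adjusted p = 0.565). DNAJB12 and DNAJB14, J-proteins of the same membrane, fell in the INTS8 line (-0.49 ± 0.08 and -0.20 ± 0.07) and in the INTS11 line of batch 1 (-0.36 ± 0.08 and -0.26 ± 0.07). In the INTS11 line of batch 2 DNAJB12 had 23.0 and 20.1 at 3 h against 22.5 and 19.5 at 0 h, groups that overlapped, while in the N211del line of that batch it fell (-0.39 ± 0.08). DNAJB14 had 24.2 and 24.1 at 3 h against 29.8 and 28.5 at 0 h in the INTS11 line (-0.27 ± 0.06).

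HSPA13, an HSP70-like protein of the endoplasmic reticulum, was called in opposite directions in 2 batches of the same line. N211del cells had 20.2 and 21.2 with dTAG13 and 24.1 and 22.9 with DMSO in batch 1, and 22.4 and 23.2 at 3 h against 18.7 and 18.9 at 0 h in batch 2. The log2 fold changes were -0.18 ± 0.08 and 0.27 ± 0.07 (adjusted p = 0.0463 and 0.00464). The first was lost without either DMSO library (adjusted p = 0.265 and 0.0822) or the first dTAG13 library (adjusted p = 0.0942), and the second was 0.08 (adjusted p = 0.268) with each library centred. Its INTS11-line values were 19.3 and 20.3 with dTAG13 and 19.6 and 21.2 with DMSO, which overlapped, and 28.0 and 25.8 at 3 h against 33.4 and 31.2 at 0 h. That fall of 0.26 ± 0.07 on the log2 scale (adjusted p = 0.0071) was lost without the first 0 h (adjusted p = 0.051) or the second 3 h library (adjusted p = 0.0593).

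The mitochondrial HSP70 and its J-protein were called lower in the INTS11 line in both batches. With each library centred, both were called lower in all 5 comparisons at 3 h, those of the N211del and INTS8 lines included. HSPA9 had 71.0 and 87.7 in N211del cells given dTAG13 and 82.0 and 78.3 with DMSO, 94.7 and 92.4 in INTS8 cells given dTAG13 and 109 and 112 with DMSO, and 89.6 and 92.8 in INTS11 cells given dTAG13 and 113 and 118 with DMSO. It fell in the INTS8 and INTS11 lines (-0.24 ± 0.08 and -0.34 ± 0.08), the INTS8 call being lost without the second DMSO (adjusted p = 0.0518) or second dTAG13 library (adjusted p = 0.0646). In the N211del line it stood at -0.02, and at 0.13 (adjusted p = 0.0665) without the first dTAG13 library or -0.17 (adjusted p = 0.0274) without the second. In batch 2 it had 86.2 and 90.3 at 3 h against 95.7 and 96.4 at 0 h in the N211del line, and 64.9 and 64.8 at 3 h against 73.9 and 70.0 at 0 h in the INTS11 line. These falls of 0.12 and 0.15 on the log2 scale each lost their call without 1 of several libraries (adjusted p up to 0.18 and up to 0.0941). DNAJA3, the mitochondrial partner of HSPA9, was called lower in the N211del, INTS8 and INTS11 lines of batch 1 (-0.19, -0.22 and -0.36, each ± 0.07) and in the INTS11 line of batch 2 (-0.18 ± 0.05). Its N211del call was lost without either DMSO library (adjusted p = 0.192 and 0.0705) or the second dTAG13 library (adjusted p = 0.0531).

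Most of the remaining J-proteins stayed near or below the median gene. DNAJC5, the cysteine string protein of secretory vesicles, had 19.4 and 20.3 in N211del cells given dTAG13 and 22.4 and 22.1 with DMSO, 19.7 and 19.2 in INTS8 cells given dTAG13 and 27.8 and 28.7 with DMSO, and 22.3 and 23.1 in INTS11 cells given dTAG13 and 27.7 and 28.6 with DMSO. It fell at 3 h in 4 of the 5 comparisons, most in the INTS8 line (-0.54 ± 0.07), and in the N211del line of batch 1 it was -0.16 (adjusted p = 0.0584). DNAJC8, which associates with the spliceosome, was called lower in the INTS11 line in both batches (-0.48 ± 0.08 and -0.26 ± 0.05). It stood at -0.05 and -0.02 in the N211del and INTS8 lines of batch 1 and at -0.02 in the N211del line of batch 2, and both N211del values were called lower with each library centred (-0.31 and -0.21). DNAJC6 fell in the INTS8 and INTS11 lines of batch 1 (-0.60 ± 0.14 and -0.41 ± 0.14) at levels under 2.3, and its INTS11 call was lost without any 1 of the 4 libraries (adjusted p 0.0591 to 0.165). DNAJC18 was lower by 0.26 to 0.53 in the 5 comparisons and called in 4, although leaving out single libraries ended its calls in the N211del and INTS11 lines of batch 1 and the INTS11 line of batch 2 (adjusted p 0.0578 to 0.304).

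DNAJA2 and DNAJB6, cytosolic J-proteins of general folding and of aggregate control, had narrow ranges. DNAJA2 ranged between 39.4 and 54.0 over the 24 libraries and DNAJB6 between 22.4 and 31.5, and their 3 h log2 fold changes lay between -0.25 and 0.07. DNAJA2 was called lower at 3 h in the INTS8 line (-0.24 ± 0.07) and DNAJB6 in the INTS11 line of both batches (-0.25 ± 0.07 and -0.13 ± 0.04). DNAJB2, a J-protein that binds ubiquitin, had 13.3 and 16.7 at 3 h against 8.98 and 10.5 at 0 h in the N211del line of batch 2 (0.61 ± 0.13, adjusted p = 0.00267). In the INTS8 line of batch 1 it had 12.6 and 13.3 with dTAG13 and 8.90 and 11.6 with DMSO (0.35 ± 0.13, adjusted p = 0.0417), a call lost with each library centred (adjusted p = 0.121), without the first DMSO library (adjusted p = 0.32) and without the first or the second dTAG13 library (adjusted p = 0.1003 and 0.179). DNAJC21, a factor of ribosome assembly, was called at 3 h only in the N211del line of batch 2 (0.19 ± 0.05), and not with each library centred. HSPBAP1, which binds HSPB1, rose in 4 of the 5 comparisons, by 0.58 ± 0.10 in the N211del line and 0.41 ± 0.10 in the INTS8 line of batch 1, and by 0.50 ± 0.08 in the N211del line and 0.25 ± 0.08 for the INTS11 line of batch 2. The INTS8 call was lost without the first dTAG13 library (adjusted p = 0.0504), and the INTS11 call without the second 0 h (adjusted p = 0.207) or either 3 h library (adjusted p = 0.088 and 0.0953). HSPBP1, an exchange factor of HSP70, rose in the N211del line of batch 1 (0.34 ± 0.09, and 0.08 and not called with each library centred) and in the INTS11 line of batch 2 (0.39 ± 0.08), and it overlapped its controls in the INTS8 line, the INTS11 line of batch 1 and the N211del line of batch 2.

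Comparing each line with itself across batches used separate libraries. In the N211del line 9 members were called higher in both batches (DNAJA1, DNAJB1, DNAJC1, DNAJC10, DNAJC15, DNAJC22, HSPA4L, HSPBAP1 and HSPH1), DNAJC13 was lower in both and HSPA13 went opposite ways. Of the 6569 genes tested in both batches, 42% were higher in both, 5.65% lower in both and 0.304% opposite. The 27 log2 fold changes correlated at 0.87 across members, which share the libraries of each batch. In the INTS11 line 3 members were higher in both (DNAJC15, DNAJC22 and HSPA4L) and 10 lower in both (DNAJA3, DNAJB1, DNAJB6, DNAJB14, DNAJC5, DNAJC8, DNAJC13, DNAJC18, HSP90AA1 and HSPA9), with a correlation of 0.82, against 16.5% of all genes higher and 11.9% lower in both. After centring the numbers were 6 higher and 13 lower in the N211del line, against 23.3% and 28.6% of all genes, and 4 higher and 12 lower in the INTS11 line, against 19.4% and 18.1%. The vehicle was the reference in batch 1 and 0 h in batch 2, so batch and kind of control cannot be told apart.

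**Figure D3:**
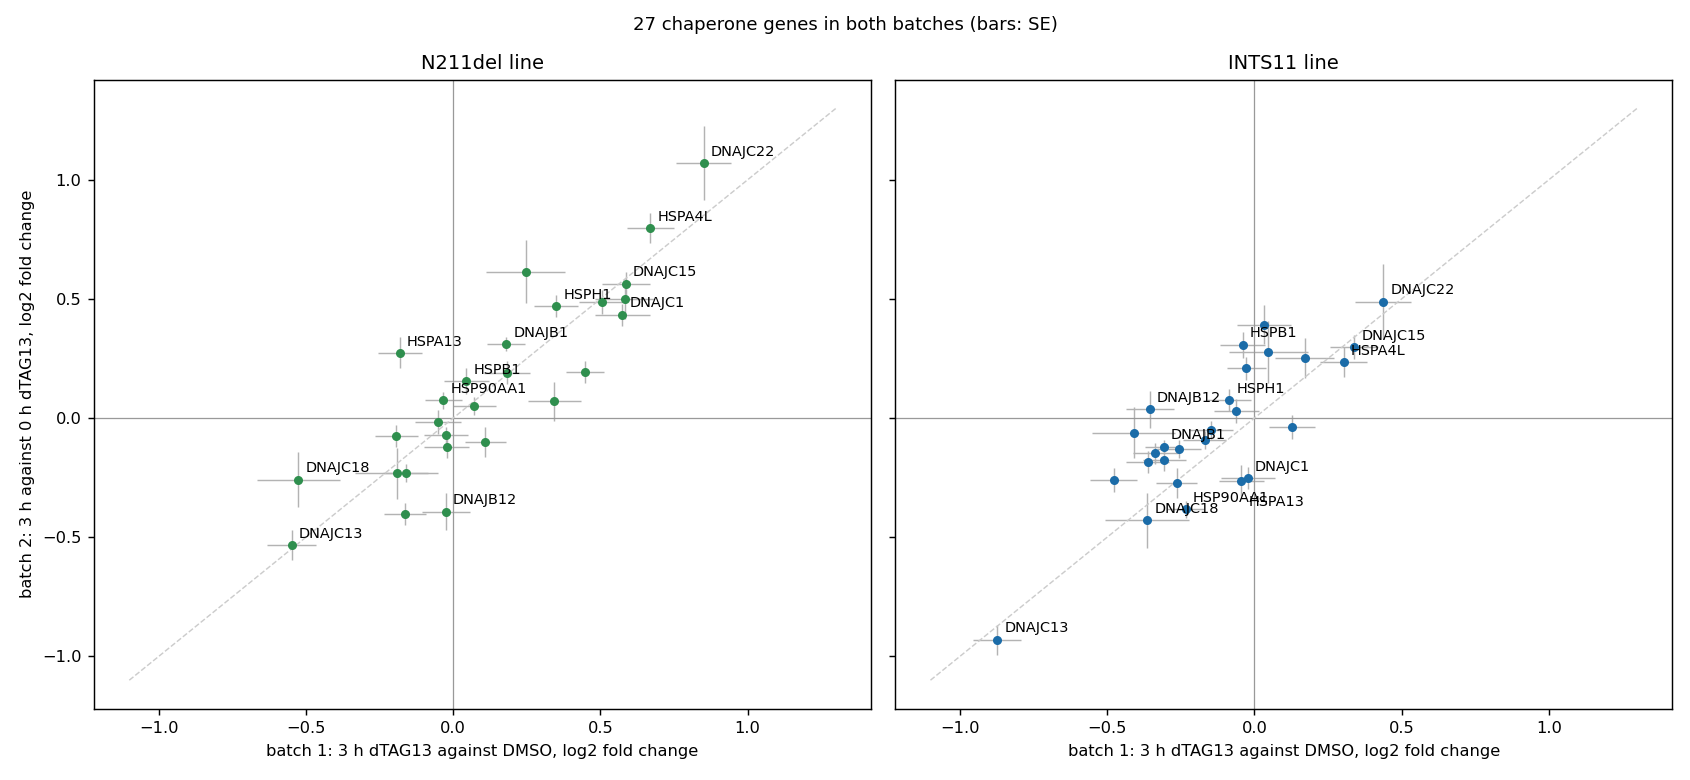
Each point is 1 of 27 members, with its 3 h log2 fold change in batch 1 on the x axis and in batch 2 on the y axis, SE bars on both and a dashed line of equal change. In both the N211del line (left) and the INTS11 line (right) DNAJC22 is at the upper right and DNAJC13 at the lower left, and in the N211del panel HSPA13 is left of 0 and above it.

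At 1 h of dTAG13 members were called in both directions in both lines of batch 2. Both times were set against the same 0 h libraries. At 1 h, 17 of 30 members were called in the N211del line, 13 higher and 4 lower, against 71% of all genes, 66% higher and 4.92% lower. Of the INTS11-line members 19 were called, 10 higher and 9 lower, against 55.9% of all genes, 46% higher and 9.86% lower. The median gene was up by 0.31 in the N211del line and 0.16 for the INTS11 line, and with each library centred the members' calls were 8 higher and 17 lower in the N211del line, against 29.5% and 36.1% of all genes, and 6 higher and 15 lower for the INTS11 line, against 29% and 30.3%. At 1 h DNAJC22 stood at 1.06 ± 0.16 in the N211del line and 0.65 ± 0.16 for the INTS11 line, HSPA4L at 0.95 ± 0.06 and 0.47 ± 0.06, and DNAJC10 at 0.67 ± 0.05 and 0.21 ± 0.05. Several modest 1 h rises in the N211del line turned to falls with each library centred: DNAJB1 was 0.12 and -0.23, DNAJA1 0.22 and -0.13 and DNAJC21 0.20 and -0.15.

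Directly comparing 3 h with 1 h, 7 of 30 members were called in the N211del line, 1 higher and 6 lower, against 37.2% of all genes, 2.2% higher and 35% lower. For the INTS11 line 6 were called, 1 higher and 5 lower, against 15.6% of all genes, 0.475% higher and 15.1% lower. DNAJB1 was the higher one in both. DNAJB14, DNAJC1 and DNAJC10 were among the lower ones in both, but the median gene also fell, by 0.13 and 0.09, and with each library centred the calls were 9 in the N211del line, against 11.6% of all genes higher and 7.63% lower, and 2 for the INTS11 line, against 1.55% and 1.21%, all of them higher. The INTS11 count dropped to 0 without the first 1 h library or without either 3 h library, and the N211del count dropped to between 1 and 4 without any 1 of its 4 libraries.

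The lines were compared directly as a signed difference of log2 fold changes, so that a positive value can mean a larger rise or a smaller fall. At 3 h in batch 1 the fold change was higher in the N211del line than in the INTS11 line for 13 of 27 members, with 48.5% of all genes called, 43.7% higher and 4.8% lower. The median difference was 0.31 over members and 0.26 over all genes. The largest were DNAJC1 (0.60 ± 0.13), DNAJB1 (0.49 ± 0.09), DNAJA1 (0.48 ± 0.09), HSPH1 (0.43 ± 0.11) and DNAJC8 (0.43 ± 0.11). With each library centred, where 15.1% of all genes were higher and 18.8% lower, 3 members were called, DNAJC1 higher (0.30, adjusted p = 0.0109) and HSPA4 and HSPA13 lower. The count was 8 without the first INTS11 dTAG13 library. At 3 h in batch 2, 15 of 30 were called, 11 higher and 4 lower, against 50.9% of all genes, 35.8% higher and 15.2% lower, and 8 and 6 with each library centred, against 25.2% and 28.7%. DNAJC1 (0.69 ± 0.07), HSPA4L (0.56 ± 0.09), HSPA13 (0.54 ± 0.09), DNAJC10 (0.52 ± 0.07) and HSP90AA1 (0.46 ± 0.05) led, and all 5 were called higher with each library centred. At 1 h 13 of 30 were called, 11 higher and 2 lower, against 48.6% of all genes, 39.3% higher and 9.24% lower, and 6 and 5 with each library centred, against 22.3% and 25.8%.

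The 3 h log2 fold change was called higher in the N211del line than in the INTS11 line in both batches for 7 members, DNAJB1, DNAJC1, DNAJC8, DNAJC10, DNAJC13, HSPA4L and HSPH1, against 28% of the 6569 genes tested in both. DNAJC13 fell in both lines and fell less in the N211del line, and DNAJC8 was called lower in the INTS11 line and not in the N211del line. DNAJB12 was called in opposite directions, at 0.33 ± 0.12 in batch 1 and -0.43 ± 0.11 in batch 2. After centring, DNAJC1 alone was higher in both, HSPA4 was lower in both and HSPA13 went opposite ways, where 11.8% of all genes were higher, 12% lower and 1.05% opposite. Between the N211del and INTS8 lines in batch 1, 5 of 27 members differed, each with the higher log2 fold change in the N211del line, against 11.1% of all genes, 9.04% higher and 2.01% lower. They were DNAJB12 (0.47), HSPBP1 (0.43), DNAJC5 (0.38), DNAJB14 (0.31) and DNAJA1 (0.30). This count was 0 without the second INTS8 DMSO library, 1 without either N211del DMSO library, the second N211del dTAG13 library or the second INTS8 dTAG13 library, 3 without the first INTS8 DMSO library, and 12 without the first N211del dTAG13 library.

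Between the INTS8 and INTS11 lines 6 of 27 members differed in response, 5 higher and 1 lower, against 25.4% of all genes, 19.4% higher and 6% lower. DNAJC22 (0.55 ± 0.13), DNAJC8 (0.46 ± 0.11), DNAJC1 (0.41 ± 0.13) and DNAJC15 (0.38 ± 0.12) had the higher log2 fold change in the INTS8 line, and HSPA4 the lower one (-0.34 ± 0.11). DNAJC22 and DNAJC15 rose further in the INTS8 line. HSPA4 fell there and was at -0.15 in the INTS11 line, DNAJC1 rose there and was at -0.02 in the INTS11 line, and DNAJC8 was at -0.02 there and fell in the INTS11 line. These 5 kept their calls with each library centred, where 4 members were higher and 5 lower, against 17.1% and 20.9% of all genes. The count was 3 without the second INTS11 DMSO, the first INTS8 DMSO or the first INTS8 dTAG13 library. The calls of DNAJC1, DNAJC15 and HSPA4 were each lost in 4 or more of the 8 fits that left out 1 library (adjusted p up to 0.122, 0.0924 and 0.104).

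**Figure D4:**
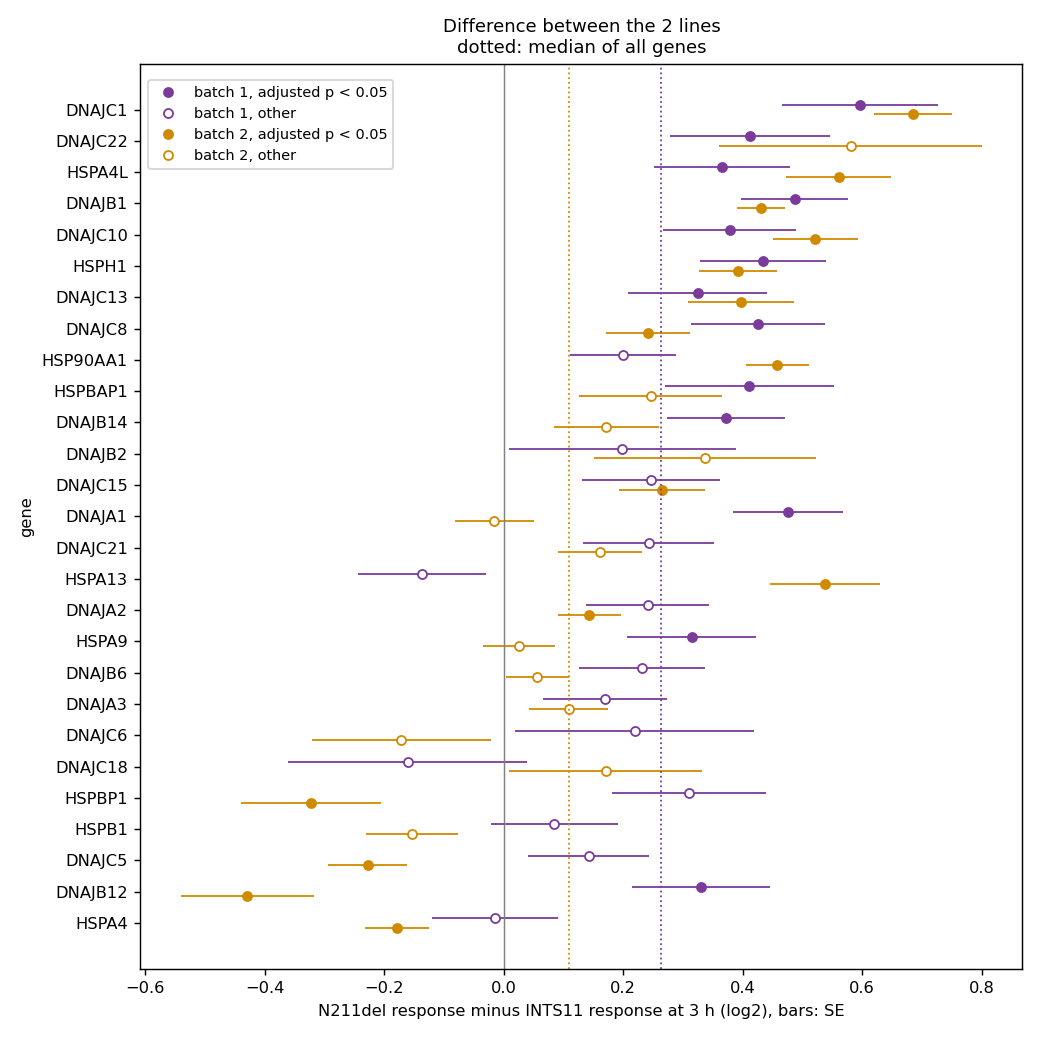
Points give the N211del response minus the INTS11 response at 3 h (log2, with SE bars) for 27 members in batch 1 (purple) and batch 2 (orange), filled where the adjusted p was under 0.05. Dotted lines mark the median over all genes, 0.26 in batch 1 and 0.11 in batch 2. DNAJC1 stands farthest right in both batches, and DNAJB12 is filled on the right in batch 1 and on the left in batch 2.

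Before treatment the lines already differed, and for several members their order was not the same in the 2 batches. HSP90AA1 had 592 and 568 in the N211del line against 846 and 838 in the INTS11 line under DMSO in batch 1, but 806 and 823 against 629 and 626 at 0 h in batch 2. DNAJB1 had 243 and 248 in the N211del line against 212 and 221 in the INTS11 line in batch 1, but 245 and 246 against 361 and 351 in batch 2. HSPA13 had 24.1 and 22.9 in the N211del line against 19.6 and 21.2 in the INTS11 line in batch 1, but 18.7 and 18.9 against 33.4 and 31.2 in batch 2. HSPB1 was the higher in the N211del line in both, at 933 and 904 against 456 and 535 in batch 1 and 818 and 854 against 778 and 714 in batch 2. These pairs do not overlap, and levels were compared only within a batch because the batches were scaled apart.

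By test, 22 of 27 members differed between the N211del and INTS8 lines under DMSO, 3 higher (DNAJB1, DNAJB2 and HSPB1) and 19 lower, against 63.7% of all genes, 5.03% higher and 58.7% lower. The N211del DMSO libraries had the lowest totals of batch 1, and with each library centred the split was 7 higher and 10 lower, with 26.3% of all genes in each direction. HSPB1 was the largest (0.92 ± 0.08, and 1.23 with each library centred). At 0 h in batch 2, 18 of 30 differed between the N211del and INTS11 lines, 11 higher and 7 lower, against 70% of all genes, 38.4% higher and 31.6% lower, and 11 and 8 with each library centred, against 36.7% and 35.5%. Between the INTS8 and INTS11 lines under DMSO 6 of 27 differed, 3 higher and 3 lower, against 30.7% of all genes, 26.8% higher and 3.91% lower. DNAJC22 was the largest there (1.08 ± 0.09). Centring raised that count to 12, 2 higher and 10 lower, against 21.2% and 18.4% of all genes, and it was 3 without the first INTS11 DMSO library and 2 without the first INTS8 DMSO library.

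Genes that work with these chaperones were counted from 4 lists. At 3 h, all genes were 48.5% higher and 7.1% lower in the N211del line, 34.6% and 21% in the INTS8 line and 19.4% and 19.8% in the INTS11 line of batch 1, and 49.7% and 13.8% in the N211del line and 36% and 19.3% for the INTS11 line of batch 2. With each library centred these shares were 26.9% and 35.2%, 30.7% and 36.4%, and 26.1% and 24.5% in batch 1, and 30.9% and 35.1% and 31.8% and 28.9% in batch 2. No list was tested against them. Of 13 co-chaperones of HSP70 and HSP90 tested of 29 listed, at 3 h 7 were higher in the N211del line, 3 higher and 4 lower in the INTS8 line and 1 higher and 5 lower in the INTS11 line of batch 1. In batch 2, 7 were higher and 1 lower in the N211del line and 4 higher and 2 lower in the INTS11 line. After centring, the counts of batch 1 became 2 higher and 5 lower, 3 and 8, and 2 and 4 in the same order of lines, and those of batch 2 became 5 and 5 and 4 and 6. FKBP5, an HSP90 co-chaperone of steroid receptors, had 10.7 and 13.4 in N211del cells given dTAG13 and 5.62 and 5.28 with DMSO, 18.0 and 16.6 in INTS8 cells given dTAG13 and 10.9 and 9.88 with DMSO, and 8.27 and 7.53 in INTS11 cells given dTAG13 and 6.62 and 6.63 with DMSO. It rose in the N211del and INTS8 lines (log2 fold change 1.13 and 0.73) and in the N211del line of batch 2 (0.92), while the INTS11 line gave 0.25 in batch 1 and -0.04 in batch 2, neither past the test. SUGT1, another HSP90 co-chaperone, gave 0.56, 0.39 and 0.53 in the first 3 of these and -0.02 and -0.05 in the INTS11 line. STIP1, which bridges HSP70 and HSP90, fell in the INTS8 line (-0.39) and in the INTS11 line of both batches (-0.30 and -0.15).

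Among the 15 genes tested of 23 listed for folding and the unfolded protein response of the endoplasmic reticulum, 6 were higher in the N211del line, 5 higher and 2 lower in the INTS8 line and 1 lower in the INTS11 line of batch 1. Centring gave 2 higher and 6 lower, 5 and 5, and 1 and 3. In batch 2 at 3 h, 9 were higher in the N211del line and 1 higher and 5 lower for the INTS11 line, and centring gave 4 and 5, and 1 and 9. HERPUD1, a component of protein disposal from that compartment, had 83.8 and 90.0 in N211del cells given dTAG13 and 58.7 and 63.8 with DMSO, 86.6 and 85.4 in INTS8 cells given dTAG13 and 49.9 and 51.2 with DMSO, and 37.6 and 35.4 in INTS11 cells given dTAG13 and 38.9 and 35.5 with DMSO. It rose in the N211del line of both batches (0.50 and 1.08) and in the INTS8 line (0.77), stood at -0.03 in the INTS11 line of batch 1 and fell by 0.27 on the log2 scale in that of batch 2. Among 8 of 16 TRiC and prefoldin genes tested, which fold actin and tubulin, 1 was higher in the N211del line, 1 higher and 2 lower in the INTS8 line and 4 lower in the INTS11 line of batch 1. Centred, 6, 4 and 4 were lower in these lines and none higher. In batch 2, 2 were higher and 1 lower in the N211del line and 1 higher and 5 lower for the INTS11 line, and 2 and 5, and 1 and 7, after centring. CCT4, a TRiC subunit, gave -0.09, -0.33 and -0.32 in the N211del, INTS8 and INTS11 lines of batch 1. Of 5 of 16 mitochondrial import and folding genes tested, 2 were higher in the N211del line, 2 higher and 2 lower in the INTS8 line and 2 lower in the INTS11 line of batch 1, and after centring 2 were lower and none higher in each. In batch 2, 3 were higher in the N211del line and 1 higher and 1 lower for the INTS11 line, and 1 and 2, and 0 and 2, after centring. CLPX, the unfoldase of a mitochondrial protease, gave 0.36, 0.22 and -0.26 in the N211del, INTS8 and INTS11 lines of batch 1. The first 2 of these did not pass with each library centred.

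Other genes share positions with some members. RefSeq places 15 of the 31 members over other genes, among them DNAJB1 with TECR, HSP90AA1 with WDR20 and DNAJC10 with PDE1A. Libraries came from a stranded kit per the labels, but whether reads were counted by strand was not given in the sources used here. Reads of a member and of a gene opposite to it may not be separated. Spearman's rho between gene length and response across members lay between -0.215 and -0.0379 over the 5 comparisons at 3 h. Over all genes it lay between -0.285, in the INTS11 line of batch 2, and 0.0776, in the N211del line of batch 1. These values describe genes that share libraries and depth.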

How the data were processed

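TT-seq libraries of 3 DLD1 lines were analysed from the deposited values, which are headed FPKM per the file headers. Per the submitters' processing notes the tools included STAR 2.7.5c, Picard 2.23.3, SAMtools 1.9, DESeq2 1.26.0 and Trim Galore 0.6.6, and the builds hg19 and mm10 are named with no role given. The deposited FPKM values were read as whole numbers per kb of gene span (tolerance 0.02), in batch 2 after division by 1 factor per library. The treatment protocol in the labels states 3 h for all libraries, and times were taken from the titles and characteristics.

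Values were tested with limma 3.58.1 in R 4.3.3 on log2(value + 0.1), with 1 mean per group over the 12 libraries of a batch, a trended and robust variance, and Benjamini-Hochberg adjustment at 0.05 over all genes with a mean of at least 0.1. Fold changes are on the log2(value + 0.1) scale, which understates changes of low genes. The code was tested on simulated data. Alternatives were pseudocounts of 0.01 and 1, no filter, a filter at a mean of 1, each library centred on its median gene, the replicate number as a block, and each library left out. With 1 library left out, the remaining library of that group is taken to vary as other groups do. Averaging agreeing duplicates was added after seeing the data. Replicate numbers were not shown to pair the libraries, since no correlation of deviations between same-numbered libraries was above 0.1. Such correlations cannot tell whether same-numbered libraries were handled together.

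All members are reported by rule. The members, the gene lists and the genes named in most detail were chosen with earlier results of these data known. Promoters were taken from RefSeq. Python libraries were matplotlib 3.10.9, scipy 1.17.1, pandas 2.3.3 and numpy 2.4.6.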

Additional observations from a re-analysis of the deposited data

Results flagged for a closer look

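The responses of lines to dTAG13 differed, by a test of the difference itself, for these members, given as differences in log2 fold change from limma with Benjamini-Hochberg adjustment over all genes. In batch 1 at 3 h, the N211del response minus the INTS11 response was 0.60 for DNAJC1, 0.49 for DNAJB1, 0.48 for DNAJA1, 0.43 for HSPH1 and 0.43 for DNAJC8 (adjusted p at most 0.0045). Of these only DNAJC1 was called with each library centred. The INTS8 response minus the INTS11 response was 0.55 for DNAJC22, 0.46 for DNAJC8, 0.41 for DNAJC1, 0.38 for DNAJC15 and -0.34 for HSPA4 (adjusted p at most 0.0247). The N211del response minus the INTS8 response was 0.47 for DNAJB12, 0.43 for HSPBP1, 0.38 for DNAJC5, 0.31 for DNAJB14 and 0.30 for DNAJA1 (adjusted p at most 0.0467), of which DNAJC5 alone was called with each library centred.

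In batch 2 the N211del response minus the INTS11 response at 1 h was 0.65 for DNAJC1, 0.59 for HSPA13, 0.48 for HSPA4L, 0.46 for DNAJC10 and 0.39 for DNAJB1 (adjusted p at most 0.00168). At 3 h it was 0.69 for DNAJC1, 0.56 for HSPA4L, 0.54 for HSPA13, 0.52 for DNAJC10 and 0.46 for HSP90AA1 (adjusted p at most 0.00107). Both times were set against the same 0 h libraries. DNAJC1 appears in both batches, at 1 h and 3 h. Groups of 2 libraries are too small for a test of single outlying libraries.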

How the results depend on the processing

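The pseudocounts and filters moved no count of called members by more than 1.5 times. Centring each library gave counts of 2 for 3 h against 1 h in the INTS11 line, 3 and 2 for the N211del response against the INTS11 and INTS8 responses in batch 1, and 12 for INTS8 against INTS11 under DMSO. With agreeing duplicates averaged, chosen after seeing the data, the counts were 7 in the INTS11 line and 11 in the INTS8 line of batch 1 and 7 in the INTS11 line at 3 h in batch 2. They were 0 and 2 for 3 h against 1 h in the INTS11 and N211del lines. For responses they were 0 (INTS8 against INTS11), 4 (N211del against INTS11, batch 1), 0 (N211del against INTS8) and 9 (N211del against INTS11, 3 h, batch 2), and 2 for INTS8 against INTS11 under DMSO. In the fit without averaging, limma gave 10, 9 and 10 members at an unadjusted p under 0.05 in the 3 comparisons with a count of 0. The 2 fits differ in averaging as well as in adjustment, so these counts are not unadjusted counts of the averaged fit.

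Leaving out 1 library gave, at 3 h in batch 1, 10 to 15 called in the N211del line, 14 in each fit of the INTS8 line and 11 to 13 in the INTS11 line. Batch 2 gave 16 to 18 at 1 h and 16 to 18 at 3 h in the N211del line, and 15 to 18 and 13 to 16 in the INTS11 line. For 3 h against 1 h it gave 1 to 4 in the N211del line and 0 to 7 in the INTS11 line. For responses it gave 8 to 18 (N211del against INTS11, batch 1), 0 to 12 (N211del against INTS8), 3 to 6 (INTS8 against INTS11), and 10 to 15 at 1 h and 11 to 15 at 3 h (N211del against INTS11, batch 2). For untreated lines it gave 2 to 5 (INTS8 against INTS11), 19 to 22 (N211del against INTS8) and 13 to 18 (N211del against INTS11).

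Some signs turned, called values among them. After centring, DNAJA1 was 0.0057 in the INTS11 line of batch 1, HSPB1 -0.22 and DNAJB1 -0.082 in the N211del line of batch 1, and HSPH1 -0.057 and HSPA4 -0.15 in the INTS11 line at 1 h. In the N211del line at 1 h HSPB1 was -0.29, HSP90AA1 -0.30, DNAJA1 -0.13 and DNAJB1 -0.23, and at 3 h HSPB1 was -0.042, HSP90AA1 -0.12 and DNAJA1 -0.0041. Over the fits without 1 library HSPB1 ran from -0.16 to 0.075 in the INTS11 line of batch 1, HSPA9 from -0.17 to 0.13 and HSP90AA1 from -0.13 to 0.062 in the N211del line of batch 1, HSPA4 from -0.035 to 0.042 in the INTS11 line at 1 h, and HSPA1B from -0.48 to 1.12 in that line at 3 h. Apart from centring, the cause was not tested.

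The replicate block gave 13 in the N211del line, 19 in the INTS8 line and 15 in the INTS11 line of batch 1, within 1.5 times of the counts without it, as in the other comparisons. HSPB1 in the INTS8 line gained a call (adjusted p = 0.0304), and HSPA13 in the N211del line of batch 1 (adjusted p = 0.0624) and DNAJB14 for N211del against INTS8 (adjusted p = 0.0593) lost theirs. The numbers are not shown to pair the libraries. Correlations of deviations lay between -0.105 and 0.0822. Depth limits DNAJC22, DNAJC18 and DNAJB2, with fewer than 150 units in many libraries, and the near-zero members most.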

Other observations

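HSPA12A, an HSP70-like gene, was listed in only some batch 1 libraries and so is no member there. It had 0.140 and 0.140 in N211del cells given dTAG13 and 0.0560 and 0.126 with DMSO, and 0.0560 and 0.140 in INTS8 cells given dTAG13 and 0.196 and 0.0841 with DMSO, and was not compared.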
